A study of Mus musculus with 11 samples.

Results

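The genes described here encode proteins of the mitochondrial ribosome in mouse CD8+ T cells. They were taken as every gene with a probe set of a single gene symbol whose symbol starts with Mrpl or Mrps followed by a digit, and the probe set with the highest mean over the arrays stood for the gene. This gave 76 genes of the 18193 with a probe set of a single gene symbol. Of the 76, 47 had an Mrpl symbol (large subunit by name) and 29 an Mrps symbol (small subunit by name). All 76 lay above the filter on low values on all 11 arrays, with log2 levels between 3.28 and 8.35, and all were among the 14795 genes tested. Levels are on the log2 scale, converted from deposited values taken as log10, so that a log2 difference of 1 is a 2-fold change, and the filter level was 1.54 on that scale.

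The mitochondrial ribosome translates the few proteins that mitochondrial DNA encodes, all of them core subunits of the respiratory chain and the ATP synthase. Its RNAs come from the mitochondrial genome, while its proteins come from nuclear genes, are made in the cytosol and are imported. Some of these proteins descend from those of the bacterial ribosome, and others were added in the mitochondrial lineage. Activated CD8+ T cells enlarge their mitochondrial mass, and mitochondrial translation is known to sustain their cytotoxic activity.

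The study set effectors of naive origin beside effectors of central memory origin, each at rest and after a further stimulus. All cells came from mice with the pmel-1 transgenic T cell receptor, which recognises a peptide of gp100, and were CD8+ cells enriched as CD44+ (central memory) or CD44- (naive) cells. Both fractions were expanded for 1 week with anti-CD3 and anti-CD28, restimulated with the hgp100 peptide on allogeneic feeder cells, and kept for 2 weeks in 10 cetus units of IL2, so that all arrays describe cultured effectors of a single antigen specificity and not resting naive or memory cells. The groups were naive-derived stimulated cells (CD3 and CD28 stimulation for 4 h, 3 arrays), naive-derived unstimulated cells (2 arrays), memory-derived stimulated cells (4 h, 3 arrays) and memory-derived unstimulated cells (3 arrays), and the labels give the replicates as independent experiments. In RNA from bulk cultures, fewer cells of a type and less RNA per cell cannot be told apart.

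Of the 8 CD8+ T cell markers, 7 had a probe set of a single gene symbol. All 7 were above the filter level on every array, while Cd4 was below it on every array. The log2 of the summed unlogged signal of those markers was 11.35 to 11.46 in naive-derived stimulated cells, 11.61 to 11.64 in naive-derived unstimulated cells, 10.99 to 11.06 in memory-derived stimulated cells and 11.57 to 11.59 in memory-derived unstimulated cells. For the 7 myeloid markers this log2 sum was 4.86 to 5.29 in naive-derived stimulated cells, 5.04 to 5.15 in naive-derived unstimulated cells, 5.62 to 5.79 in memory-derived stimulated cells and 5.80 to 6.07 in memory-derived unstimulated cells, with Mpeg1 below the filter level on every array. The difference in the sum between origins lay in Cd68, at 2.96 to 4.03 in all naive-derived cells and 4.54 to 5.37 in all memory-derived cells, and in Cd14. The other 5 overlapped between origins in stimulated cells, and in unstimulated cells Csf1r and Lyz2 were higher in naive-derived cells on every array. The log2 gap between the 3' and 5' actin control probe sets, a sign of RNA integrity, was 1.93 to 2.60 in naive-derived stimulated cells against 1.54 to 1.59 in naive-derived unstimulated cells, and 1.43 to 1.73 in memory-derived stimulated cells against 0.875 to 1.17 in memory-derived unstimulated cells. The same gap for Gapdh overlapped between stimulated and unstimulated cells of either origin, at -1.82 to -1.48 against -1.65 to -1.42 in naive-derived and -1.43 to -1.38 against -1.51 to -1.29 in memory-derived cells. The part of these differences in the results below was not tested. The third memory-derived unstimulated array stood apart: the SD of the 76 genes around their group means was 0.217 on it, against 0.0624 to 0.178 on the other arrays, and 5 of the genes lay over 0.5 from the group mean. Over all genes tested that SD was 0.286 on it, against 0.172 to 0.250 on the other arrays, so the wider spread was not confined to the 76 genes.

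In memory-derived effectors, stimulation moved the mitochondrial ribosomal genes in both directions. Of the 76 genes, 25 rose (32.9%), 10 fell (13.2%) and 41 did not pass at an adjusted p below 0.05 (limma with Benjamini-Hochberg adjustment over all genes tested). Over all genes tested, 14.3% were called higher, 17.3% lower and 31.6% either way. The share that rose was above that of all genes, and the share that fell was below it. The median log2 difference, stimulated minus unstimulated, was 0.08 for the 76 genes and 0.00 for all genes, and single genes ranged from -0.97 to 0.91. The calls of 11 genes held under all 19 alternatives run: Mrps2, Mrps5, Mrps27, Mrps28, Mrpl1, Mrpl3 and Mrpl47 rose, and Mrps16, Mrpl4, Mrpl10 and Mrpl18 fell. Without the first memory-derived stimulated array 14 rose (18.4%, against 10.8% of all genes) and 10 fell (13.2%, against 13.7%, nearly the same share). Without the second 16 rose (21.1%, against 10.3%) and 7 fell (9.21%, against 12.9%). Without the third memory-derived unstimulated array 17 rose (22.4%, against 11.1% of all genes) and 9 fell (11.8%, against 13.1%).

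**Figure D1:**
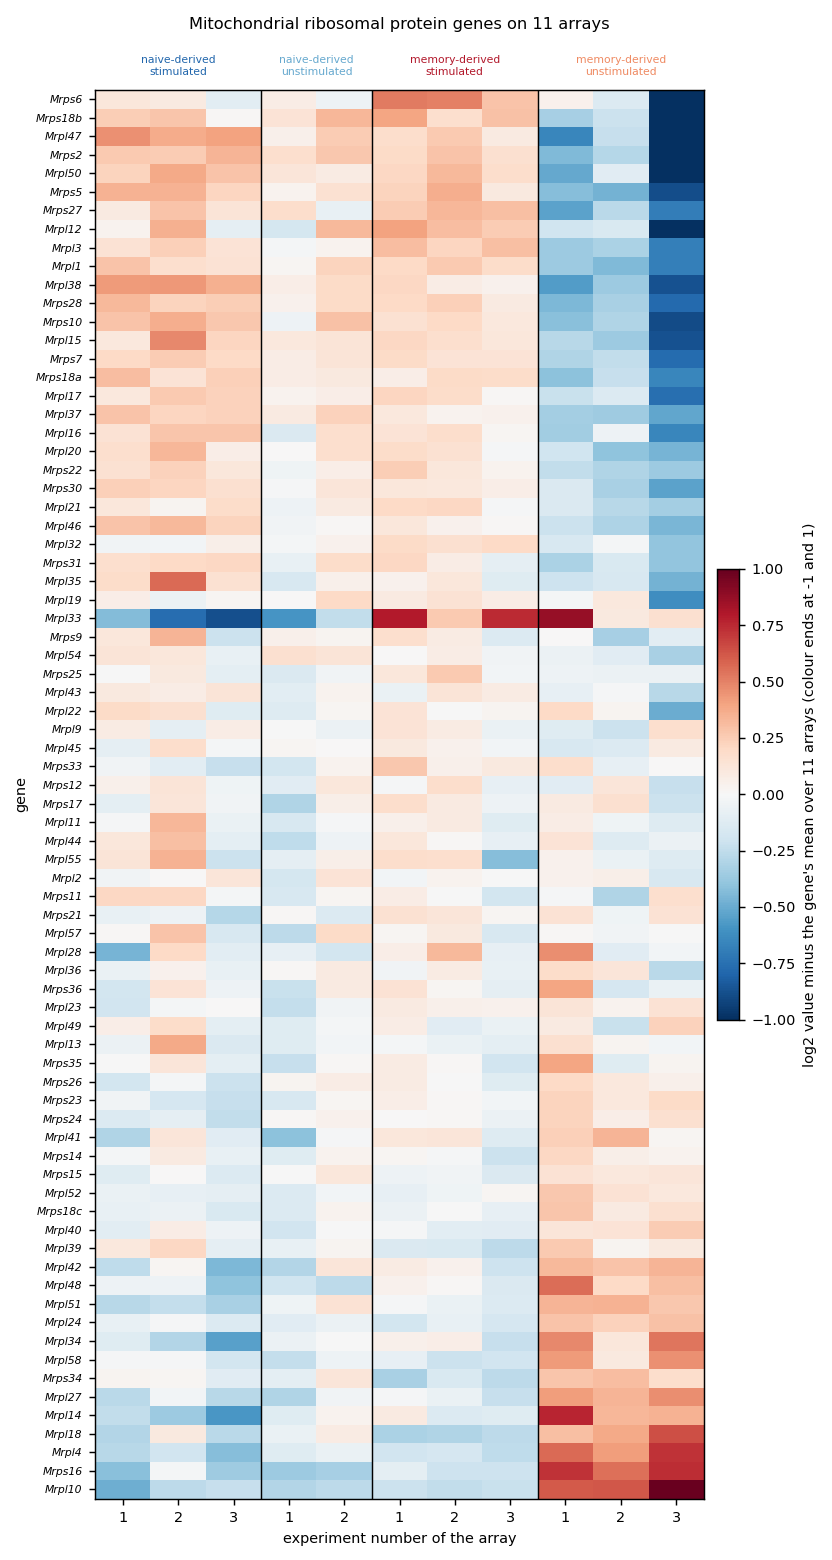
Each row is one of the 76 mitochondrial ribosomal genes, in the order of the memory-derived response, and each column an array, numbered by experiment and coloured by the log2 value minus the gene's mean over the 11 arrays. The memory-derived unstimulated columns stand out in both colours, since 25 genes were higher and 10 lower after stimulation in memory-derived cells.

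By name, of the 29 small subunit genes 11 rose (37.9%), 2 fell (6.90%) and 16 did not pass, with a median log2 difference of 0.11. Among the 47 large subunit genes, 14 rose (29.8%) and 8 fell (17.0%), with a median of 0.03. Of the 46 genes with a counterpart in the bacterial ribosome, 18 rose (39.1%) and 7 fell (15.2%). Of the 30 without one, 7 rose (23.3%) and 3 fell (10%). Over all genes tested 14.3% rose and 17.3% fell. The shares that fell among large subunit genes and among genes with a bacterial counterpart were near that of all genes. The differences between these classes were not tested.

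Of the 6 genes with the largest increase, 4 belong to the small subunit, the part that binds the messenger RNA and decodes it. Mrps5, which lies by the decoding site and affects translational accuracy, had log2 levels of 5.26, 5.41 and 5.14 in memory-derived stimulated cells and 4.62, 4.57 and 4.16 in memory-derived unstimulated cells. The arrays did not overlap, and the gene rose by 0.82 on the log2 scale (SE 0.145, limma adjusted p 0.00187), or 1.77-fold. Mrps2, a small subunit protein kept since bacteria, had log2 levels of 6.53, 6.62 and 6.50 with stimulation and 5.90, 6.06 and 5.13 without it. The groups were again apart, with the third unstimulated array lowest, and the log2 difference was 0.85 (SE 0.202, limma adjusted p 0.00859).

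Mrps18b and Mrps6, also of the small subunit, depended more on that array. Mrps18b had log2 levels of 6.55, 6.32 and 6.45 in stimulated and 5.82, 5.94 and 4.84 in unstimulated memory-derived cells, a log2 difference of 0.90 (SE 0.245, limma adjusted p 0.0166). Mrps6 had log2 levels of 7.74, 7.72 and 7.50 in stimulated and 7.26, 7.09 and 5.88 in unstimulated memory-derived cells, a log2 difference of 0.91 (SE 0.29, limma adjusted p 0.0341). Neither gene overlapped between the groups, but the third unstimulated array was by far the lowest in both genes. Without it the log2 differences were 0.56 for Mrps18b and 0.48 for Mrps6, both still past the threshold. The call for Mrps18b was lost without the first memory-derived stimulated array (limma adjusted p 0.0546), and that for Mrps6 without any single one of the 3, with limma adjusted p of 0.0552 to 0.0908.

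The other large increases were in large subunit genes, whose proteins surround the peptidyl transferase centre and the exit tunnel. Mrpl47, the counterpart of bacterial L29 near the tunnel exit, had log2 levels of 5.77, 5.86 and 5.69 in memory-derived stimulated cells and 4.94, 5.36 and 4.42 in memory-derived unstimulated cells. Every stimulated array was above every unstimulated one, with a log2 difference of 0.86 (SE 0.199, limma adjusted p 0.00747). Mrpl50, which has no bacterial counterpart, had log2 levels of 5.70, 5.82 and 5.67 with stimulation and 4.98, 5.38 and 4.32 without it, a log2 difference of 0.83 (SE 0.216, limma adjusted p 0.0133). The groups did not overlap, and without the third unstimulated array the difference was 0.55 and still passed.

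Some increases were smaller but tighter. Mrps27, an RNA-binding protein of the pentatricopeptide repeat family, had log2 levels of 4.23, 4.30 and 4.27 in memory-derived stimulated cells and 3.43, 3.70 and 3.28 in memory-derived unstimulated cells (log2 difference 0.80, SE 0.138, limma adjusted p 0.00172). Mrpl3, a large subunit protein kept since bacteria, had log2 levels of 6.78, 6.68 and 6.77 against 6.11, 6.15 and 5.78 (log2 difference 0.73, SE 0.125, limma adjusted p 0.00165). Mrpl1, part of the stalk where spent tRNA leaves in bacterial ribosomes, had log2 levels of 4.76, 4.82 and 4.74 against 4.19, 4.12 and 3.87 (log2 difference 0.71, SE 0.124, limma adjusted p 0.00177). In all 3 genes the groups were apart by more than the spread within either. These genes and Mrps28, which rose by 0.69 (limma adjusted p 0.00319), were picked after their values were seen, because their calls held under all 19 alternatives run. The remaining genes that rose differed by 0.38 to 0.79 on the log2 scale.

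The largest decreases reached a similar size. Mrpl10, which anchors the stalk that brings translation factors to the ribosome, had log2 levels of 5.30, 5.27 and 5.29 in memory-derived stimulated cells and 6.12, 6.13 and 6.50 in memory-derived unstimulated cells. The stimulated arrays lay close together and below every unstimulated one, and the gene fell by 0.97 on the log2 scale (SE 0.134, limma adjusted p 0.000568), a fold of 0.51. Mrps16, a small subunit protein whose loss in humans causes respiratory chain disease, had log2 levels of 6.47, 6.36 and 6.36 with stimulation and 7.29, 7.12 and 7.30 without it. It fell by 0.84 (SE 0.132, limma adjusted p 0.00101), again with no overlap.

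Mrpl4, a large subunit protein that lines the tunnel in bacteria, had log2 levels of 5.41, 5.43 and 5.35 in memory-derived stimulated cells and 6.17, 6.02 and 6.32 in memory-derived unstimulated cells. It fell by 0.78 on the log2 scale (SE 0.12, limma adjusted p 0.000979). Mrpl18, a protein that in human cells also has a cytosolic form made under heat stress, had log2 levels of 5.84, 5.86 and 5.90 against 6.46, 6.54 and 6.81, and fell by 0.73 (SE 0.143, limma adjusted p 0.00325). Neither gene overlapped between the groups, and both calls, like those of Mrpl10 and Mrps16, held under all 19 alternatives.

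Weaker decreases included Mrpl14, which in human mitochondria binds an assembly factor, and Mrpl27, whose bacterial counterpart reaches the peptidyl transferase centre. Mrpl14 had log2 levels of 4.07, 3.84 and 3.86 in memory-derived stimulated cells and 4.74, 4.32 and 4.33 in memory-derived unstimulated cells (log2 difference -0.54, SE 0.153, limma adjusted p 0.0207). Its groups were apart, but the call was lost without the second or the third stimulated array or the first unstimulated one, with limma adjusted p of 0.0741, 0.065 and 0.0759. Mrpl27 had log2 levels of 6.37, 6.32 and 6.15 against 6.80, 6.72 and 6.85 (log2 difference -0.51, SE 0.128, limma adjusted p 0.0111). It too showed no overlap, and its call was lost when the mean of its probe sets was taken (limma adjusted p 0.297).

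**Figure D2:**
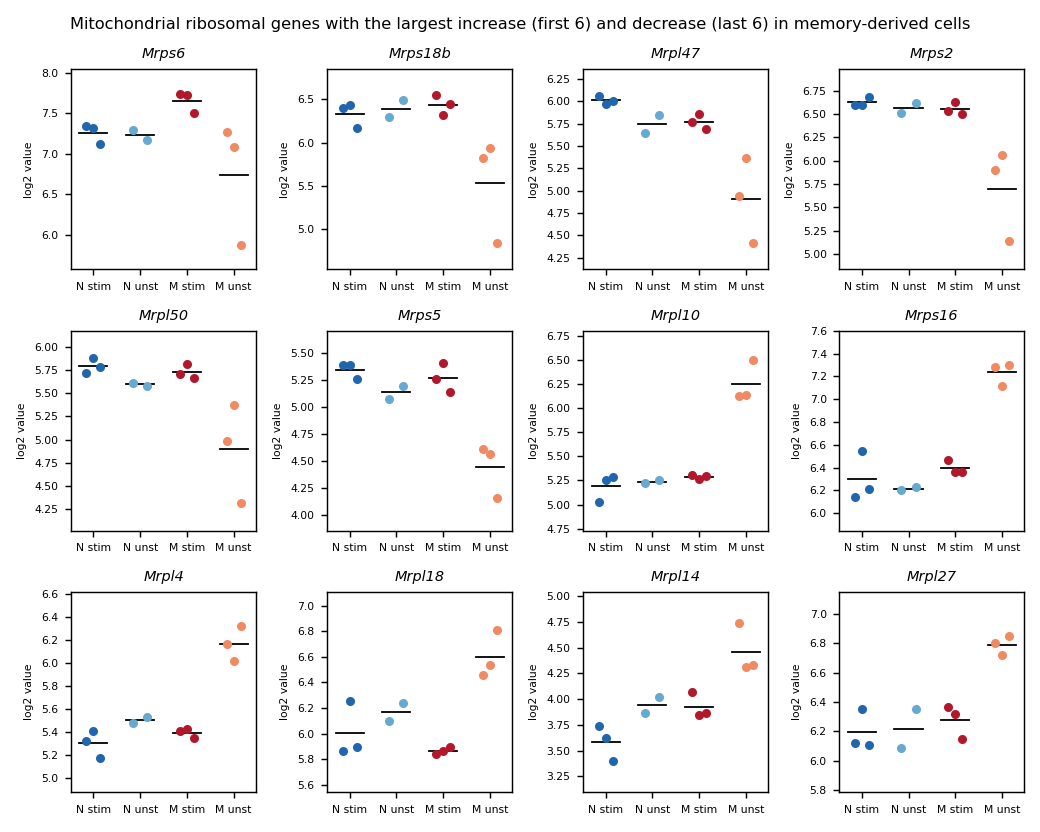
Log2 values by array for the genes with the largest increase and the largest decrease after stimulation of memory-derived cells. Points are arrays and bars are group means; N and M stand for naive-derived and memory-derived, stim and unst for stimulated and unstimulated. For Mrps5 and Mrpl10 the memory-derived unstimulated arrays lie apart from the other 3 groups, below them for Mrps5 and above them for Mrpl10.

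Genes with roles beyond the ribosome, or with a place in it that their name does not give, were followed separately. Mrpl12, the stalk protein held by Mrpl10 and known to bind the mitochondrial RNA polymerase, had log2 levels of 7.99, 7.88 and 7.83 in memory-derived stimulated cells and 7.38, 7.43 and 6.51 in memory-derived unstimulated cells. It rose by 0.79 on the log2 scale (SE 0.239, limma adjusted p 0.0268), while Mrpl10 fell. The call was lost without the third unstimulated array, where the difference was 0.50 (limma adjusted p 0.0736), and without any single stimulated array (limma adjusted p 0.0542 to 0.0778).

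Mrps30 has a small subunit name but sits in the large subunit of the mammalian ribosome. It had log2 levels of 5.93, 5.93 and 5.89 in memory-derived stimulated cells and 5.68, 5.50 and 5.29 in memory-derived unstimulated cells, and rose by 0.43 (SE 0.124, limma adjusted p 0.022), with no overlap. That call was lost without the third unstimulated array (limma adjusted p 0.0603) and without any single stimulated array (limma adjusted p 0.0523 to 0.0678). Mrpl58, a peptidyl-tRNA hydrolase that became part of the large subunit and frees stalled ribosomes, had log2 levels of 6.02, 5.88 and 5.91 against 6.53, 6.20 and 6.56 and fell by 0.49 (SE 0.133, limma adjusted p 0.0161). Its groups were apart too, and its call was lost without the second or the third stimulated array or the first or the third unstimulated one (limma adjusted p 0.0502 to 0.0602).

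The 3 Mrps18 genes are paralogs of a bacterial small subunit protein whose products sit at different places of the mitochondrial ribosome, that of Mrps18a in the large subunit. Mrps18a had log2 levels of 5.82, 5.95 and 5.94 in memory-derived stimulated cells and 5.34, 5.53 and 5.10 in memory-derived unstimulated cells, and rose by 0.58 (SE 0.13, limma adjusted p 0.00655). Mrps18b rose as given above. Mrps18c had log2 levels of 6.47, 6.51 and 6.44 against 6.80, 6.61 and 6.68, a log2 difference of -0.22 that did not pass (SE 0.111, limma adjusted p 0.155). Its stimulated arrays all lay below its unstimulated ones, the opposite order to that of both paralogs.

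The 5 genes with the largest p in this comparison were Mrpl28, Mrpl57, Mrps11, Mrps21 and Mrpl55, with log2 differences from -0.01 to 0.02 and limma adjusted p of 0.954 to 0.985. When each of 27046 probe sets was fitted alone, 34 of the chosen probe sets were called, and 32 further probe sets tested belonged to the same genes. Of these 32, 24 had the same sign, 13 of them called, and none of the others was called in the opposite direction. Mrps2 had a second probe set that differed by 1.10 (limma adjusted p 0.00186), and Mrps5 had 2 further probe sets called, at 0.58 and 1.02. A weaker probe set of Mrps23 was called at -0.45 (limma adjusted p 0.0343) where the chosen one was not, a gene named after its values were seen. A further probe set differed in direction by over 1 SE for Mrpl51, Mrps25, Mrpl41, Mrpl58, Mrpl54 and Mrps10, none of them called. The chosen probe set of Mrpl51 gave 7.27, 7.21 and 7.14 in stimulated and 7.62, 7.63 and 7.55 in unstimulated memory-derived cells (log2 difference -0.39, SE 0.109, limma adjusted p 0.0191), and its weaker one a difference of 0.28 (limma adjusted p 0.179). The call for Mrpl51 was lost without the second or the third stimulated array or the first unstimulated one (limma adjusted p 0.0514 to 0.0693). With the mean of the probe sets of each gene, the differences of Mrpl51, Mrpl58 and Mrps10 were -0.09, -0.10 and 0.25 and did not pass (limma adjusted p 0.566, 0.548 and 0.22).

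Promoters were set beside the response because the genes did not move as one block. The table of RefSeq promoters (build GRCm38.p6, 250 bases before to 50 after each listed start) held 67 of the 76 genes. Both strands were searched for an ETS core, CCGGAAG, the site type of GABP; an NRF1 site, GCGCA, any base and GCGC; a YY1 site, AAGATGGC; and the E-box CACGTG bound by Myc. Each word was counted on its own, whether or not its match overlapped that of another word. The ETS word was found in 24 of 67 promoters (35.8%), against 15.8% for other genes tested and 9.12% for all promoters, and in 20 of 39 promoters of cytosolic ribosomal protein genes (51.3%). The NRF1 word was in 12 (17.9%), against 9.12% and 4.78%, and the YY1 word in 12 (17.9%), against 4.11% and 2.88%. The E-box was in 5 (7.46%), against 9.47% and 7.24%. In the cytosolic ribosomal set each of these last 3 words was in 3 promoters (7.69%). The ETS word was in 7 of the 22 promoters of genes that rose, 5 of the 8 of genes that fell and 12 of the 37 of genes that did not pass. The promoters of 3 genes that rose and carry the ETS word, 150 bases up to the listed start, are shown with that word in capitals; they are Mrps27 at chr13:99344636-99344785, Mrpl3 at chr9:105053118-105053267 and Mrps18a at chr17:46110854-46111003, all genes on the plus strand. In Mrps27 the match is on the opposite strand and reads CTTCCGG.
Mrps27: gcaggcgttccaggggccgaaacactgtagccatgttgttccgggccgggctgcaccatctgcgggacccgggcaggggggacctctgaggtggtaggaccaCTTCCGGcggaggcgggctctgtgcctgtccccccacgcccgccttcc
Mrpl3: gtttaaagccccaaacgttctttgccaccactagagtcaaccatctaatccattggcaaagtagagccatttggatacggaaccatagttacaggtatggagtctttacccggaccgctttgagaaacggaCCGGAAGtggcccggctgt
Mrps18a: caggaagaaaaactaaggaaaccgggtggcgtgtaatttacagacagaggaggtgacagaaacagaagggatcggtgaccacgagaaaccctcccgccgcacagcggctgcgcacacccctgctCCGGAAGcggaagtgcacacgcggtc

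The same word stands in promoters of genes that fell. These are Mrpl27 at chr11:94653641-94653790, Mrpl51 at chr6:125192050-125192199 and Mrpl58 at chr11:115403602-115403751, all on the plus strand of GRCm38.p6 and shown up to the listed start with the ETS word in capitals.
Mrpl27: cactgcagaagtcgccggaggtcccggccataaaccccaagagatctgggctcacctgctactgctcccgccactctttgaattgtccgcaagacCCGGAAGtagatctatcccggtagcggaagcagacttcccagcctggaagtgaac
Mrpl51: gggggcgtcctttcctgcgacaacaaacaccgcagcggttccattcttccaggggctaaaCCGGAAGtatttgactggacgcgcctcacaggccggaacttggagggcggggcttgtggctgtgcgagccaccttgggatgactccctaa
Mrpl58: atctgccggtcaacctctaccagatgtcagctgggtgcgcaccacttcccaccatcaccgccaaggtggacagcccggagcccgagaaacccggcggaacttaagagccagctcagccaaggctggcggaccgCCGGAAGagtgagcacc
Mrpl12 at chr11:120484487-120484636, on the plus strand, rose and carries the NRF1 word on the opposite strand, in capitals here.
Mrpl12: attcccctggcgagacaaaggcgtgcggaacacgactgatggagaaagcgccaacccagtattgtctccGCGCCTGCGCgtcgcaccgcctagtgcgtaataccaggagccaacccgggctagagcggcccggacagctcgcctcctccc
Matches to the word are a description of these letters and not binding sites, and no test was made of them.

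In naive-derived effectors, none of the 76 genes was called after stimulation, and 0.0135% of all genes tested were (2 genes, both lower). At an unadjusted p below 0.05 there were 2 of the 76, Mrpl51 and Mrpl46 (limma), against 1252 of the 14795 genes tested. Of the 76, 54 differences were above zero and 22 below, against 7629 and 7166 over all genes tested. The median log2 difference was 0.07, against 0.01 for all genes, with a range of -0.35 to 0.36 for the 76. The 3 genes with the smallest p were Mrpl51, Mrpl46 and Mrpl35. Mrpl51 had log2 levels of 7.00, 7.05 and 6.96 in naive-derived stimulated cells and 7.24 and 7.43 in naive-derived unstimulated cells, a log2 difference of -0.33 (SE 0.122, limma adjusted p 0.519). Mrpl46 had log2 levels of 5.89, 5.92 and 5.82 against 5.56 and 5.61, a log2 difference of 0.29 (SE 0.124, limma adjusted p 0.586). Both were apart on the arrays at hand without passing the test, and Mrpl35 differed by 0.36 (limma adjusted p 0.613).

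Genes that moved most in memory-derived cells had small differences here. Mrps5 had log2 levels of 5.39, 5.39 and 5.26 in naive-derived stimulated and 5.08 and 5.19 in naive-derived unstimulated cells, a log2 difference of 0.21 (SE 0.162, limma adjusted p 0.797). Mrps2 had 6.60, 6.59 and 6.68 against 6.50 and 6.61, a difference of 0.06 (SE 0.226, limma adjusted p 0.969). Mrpl10 had 5.03, 5.25 and 5.29 against 5.22 and 5.25, a difference of -0.05 (SE 0.15, limma adjusted p 0.964). In the last 2 genes the naive-derived groups overlapped, and in Mrps5 they were apart by less than the spread within the stimulated arrays.

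Whether the response differed by origin was tested as an interaction, the naive-derived minus the memory-derived response. Of the 76 genes, 2 passed (2.63%), Mrpl10 and Mrps16, both positive. Of all genes tested 2.71% passed either way, 1.62% positive and 1.09% negative, so the share among the 76 was near that background. The interaction was 0.92 for Mrpl10 (SE 0.201, limma adjusted p 0.0432) and 0.93 for Mrps16 (SE 0.197, limma adjusted p 0.0411). Mrps16 had log2 levels of 6.14, 6.55 and 6.21 in naive-derived stimulated and 6.20 and 6.23 in naive-derived unstimulated cells, which overlap, beside its fall in memory-derived cells. With the experiment number as a block neither passed (limma adjusted p 0.0862 for Mrpl10 and 0.0866 for Mrps16). Leaving out any single array other than the second or the third memory-derived unstimulated one also ended both calls, with limma adjusted p of 0.0554 to 0.151. Next by p came Mrpl1 at -0.63 (limma adjusted p 0.0838), and for Mrps5, Mrps2 and Mrpl47 the interaction was -0.61, -0.79 and -0.60 with limma adjusted p of 0.128, 0.151 and 0.253.

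**Figure D3:**
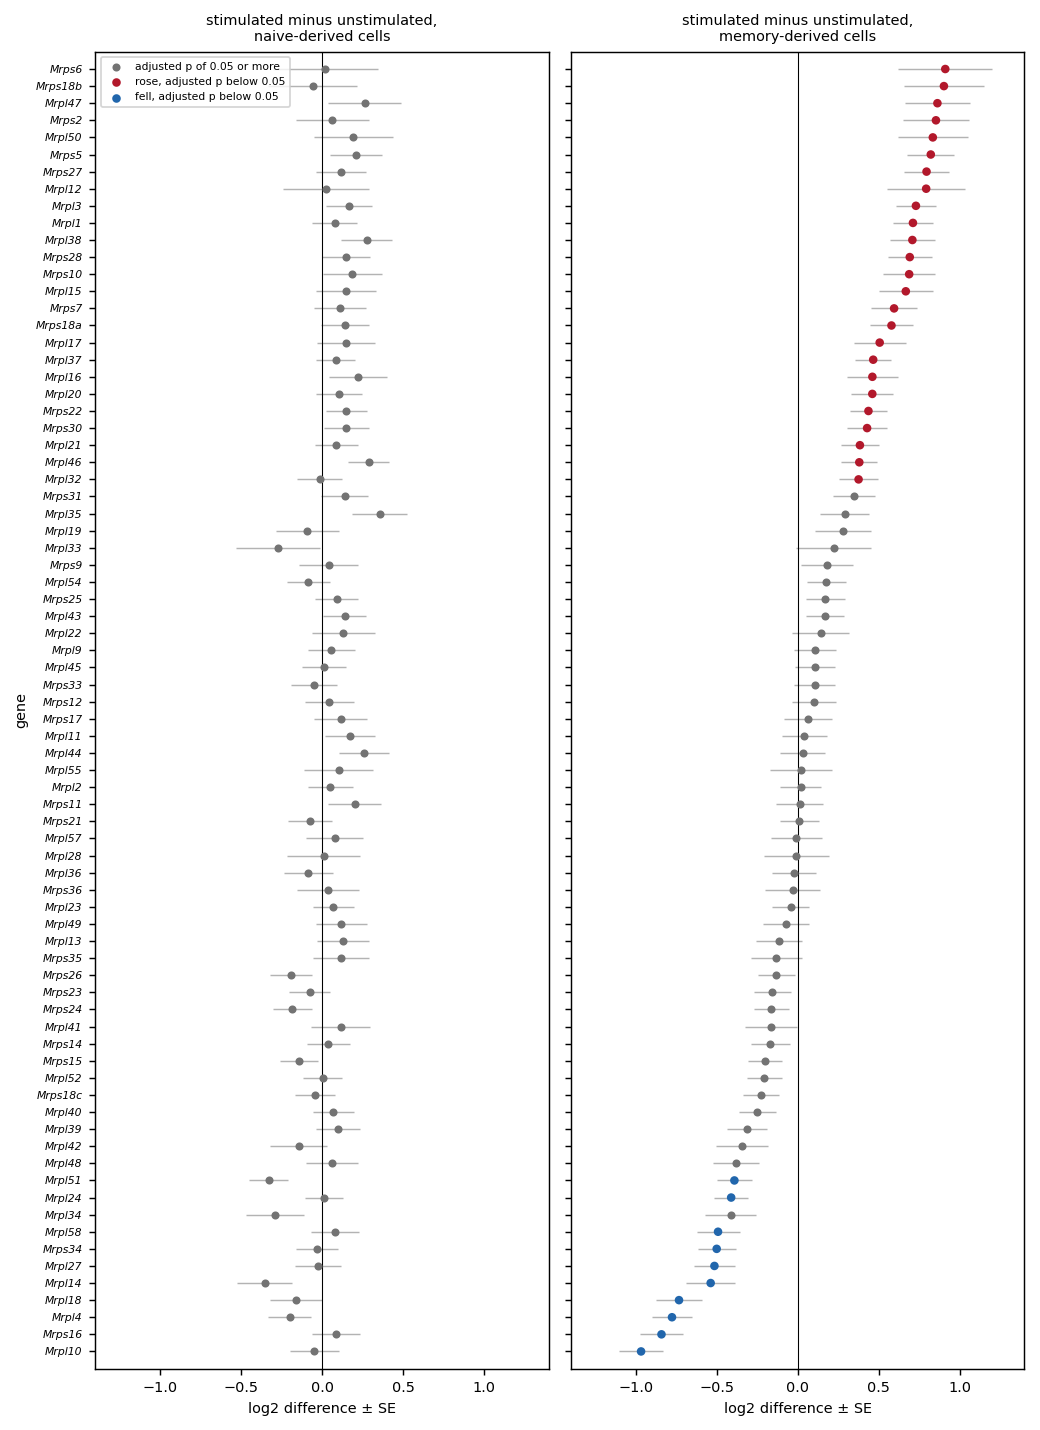
Log2 difference after stimulation (stimulated minus unstimulated, bars are SE) in naive-derived cells, left, and memory-derived cells, right, for each of the 76 mitochondrial ribosomal genes in the order of the right panel; red and blue mark genes that rose and fell at an adjusted p below 0.05. Naive-derived differences span -0.35 to 0.36 with none called, and memory-derived ones -0.97 to 0.91.

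Unstimulated naive-derived effectors differed from unstimulated memory-derived ones in 24 of the 76 genes, 15 higher (19.7%) and 9 lower (11.8%) in naive-derived cells. Of all genes tested 25.8% were called either way, 10.9% higher and 14.9% lower. The median log2 difference was -0.01 for the 76 genes and -0.01 for all genes, with single genes between -1.02 and 0.86. This comparison shares the memory-derived unstimulated arrays with the stimulation of memory-derived cells, so the values of both are given side by side and not as support for each other. When the arrays were scaled to the hybridization controls, which shifted the median of all genes to -0.08, none of the 76 was called higher and 4 lower (5.26%), against 5.89% and 12.3% of all genes. With the experiment number as a block 8 were higher (10.5%) and 7 lower (9.21%), against 8.76% and 12.6% of all genes, close to that background. Without the first naive-derived unstimulated array 6 were higher and 3 lower, and without the second 0 and 4, with 1 array then standing for that group, against 4.81% and 8.34%, and 4.77% and 7.69%, of all genes. The number lower was also 4 without the first memory-derived unstimulated array (5.26%, against 12.1% of all genes). It was 5 without the first or the third memory-derived stimulated one (6.58%, against 13.8% of all genes in both).

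Among small subunit genes 8 were higher (27.6%) and 1 lower (3.45%) in naive-derived unstimulated cells. Among large subunit genes 7 were higher (14.9%) and 8 lower (17.0%). Of all genes tested 10.9% were higher and 14.9% lower, so the large subunit shares were near those of all genes. The difference between the subunits was not tested. Mrps2 had log2 levels of 6.50 and 6.61 in naive-derived and 5.90, 6.06 and 5.13 in memory-derived unstimulated cells, a log2 difference of 0.86 (SE 0.226, limma adjusted p 0.0176). Mrps5 had 5.08 and 5.19 against 4.62, 4.57 and 4.16 (difference 0.69, SE 0.162, limma adjusted p 0.0104). Neither overlapped, and leaving out the second naive-derived array ended both calls (limma adjusted p 0.108 and 0.0836), as did leaving out the first for Mrps2 (limma adjusted p 0.0725). Mrps18b differed by 0.86 (SE 0.274, limma adjusted p 0.0409) and by 0.51 without the third memory-derived unstimulated array, and its call was lost under the block (limma adjusted p 0.0718) and without any of 8 single arrays, with limma adjusted p of up to 0.201. Mrps10, another conserved small subunit protein, had log2 levels of 5.79 and 6.13 against 5.42, 5.54 and 4.94 (difference 0.66, limma adjusted p 0.0218), a call lost without the second naive-derived array (limma adjusted p 0.189).

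In the large subunit, Mrpl47 had log2 levels of 5.65 and 5.85 in naive-derived and 4.94, 5.36 and 4.42 in memory-derived unstimulated cells (log2 difference 0.84, SE 0.222, limma adjusted p 0.0184). Mrpl38, a protein of the central protuberance without a bacterial counterpart, had 4.66 and 4.79 against 4.03, 4.23 and 3.72 (difference 0.73, SE 0.156, limma adjusted p 0.0068). Both were fully apart. Without the second naive-derived array the calls ended (limma adjusted p 0.128 and 0.0633), and without the first that of Mrpl47 did (limma adjusted p 0.0618).

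The genes lower in naive-derived unstimulated cells were led by Mrps16 and Mrpl10. Mrps16 had log2 levels of 6.20 and 6.23 in naive-derived and 7.29, 7.12 and 7.30 in memory-derived unstimulated cells, a log2 difference of -1.02 (SE 0.147, limma adjusted p 0.000972). Mrpl10 had 5.22 and 5.25 against 6.12, 6.13 and 6.50, a log2 difference of -1.02 (SE 0.15, limma adjusted p 0.00111). The gap in each was larger than the spread within either group, and these calls and that of Mrpl4 (log2 difference -0.66, SE 0.135, limma adjusted p 0.00523) held under all 19 alternatives. Mrpl27 differed by -0.57 (limma adjusted p 0.0141), lost without the first naive-derived array (limma adjusted p 0.137). Mrpl48, a large subunit protein without a bacterial counterpart, had 5.49 and 5.42 against 6.24, 5.88 and 5.99 (difference -0.58, SE 0.16, limma adjusted p 0.0213), and lost its call without either naive-derived array or the first memory-derived one (limma adjusted p 0.0646 to 0.121). With the mean of the probe sets, Mrpl27, Mrpl48, Mrpl58 and Mrps10 differed by -0.17, -0.35, -0.20 and 0.47 in this comparison and did not pass (limma adjusted p 0.455, 0.139, 0.26 and 0.052).

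Of the genes followed separately, Mrps18a differed by 0.52 in this comparison (SE 0.145, limma adjusted p 0.024), which the block moved to a limma adjusted p of 0.0576 and the loss of either naive-derived unstimulated array to 0.101 and 0.122. Mrpl58 differed by -0.47 (limma adjusted p 0.0375), a call lost under the block (limma adjusted p 0.0716) and without any of 8 single arrays (limma adjusted p 0.0503 to 0.227). Mrps18c, Mrpl12 and Mrps30 did not pass, with log2 differences of -0.23, 0.55 and 0.39 and limma adjusted p of 0.212, 0.163 and 0.0625. The 5 genes with the largest p were Mrpl2, Mrps11, Mrpl57, Mrpl9 and Mrpl55, with log2 differences from -0.03 to 0.04.

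After stimulation, 1 of the 76 genes differed between origins, lower in naive-derived cells, against 3.7% of all genes tested either way, 1.69% higher and 2.01% lower, so the count was no higher than the background. This was Mrpl33, a small protein of the large subunit with a bacterial counterpart. Its log2 levels were 7.05, 6.72 and 6.60 in naive-derived stimulated cells and 8.28, 7.74 and 8.23 in memory-derived stimulated cells. Every naive-derived array was below every memory-derived one, and the log2 difference was -1.29 (SE 0.231, limma adjusted p 0.0111), a fold of 0.41. The call was lost without the first or the third memory-derived stimulated array or the third naive-derived stimulated one, with limma adjusted p of 0.0525, 0.0505 and 0.0517. The same arrays differed in the log2 of the summed myeloid marker signal, at 4.86 to 5.29 in naive-derived and 5.62 to 5.79 in memory-derived stimulated cells. Of these markers Cd68 and Cd14 did not overlap and the other 5 did. The arrays also differed in the actin 3' to 5' gap, at 1.93 to 2.60 in naive-derived and 1.43 to 1.73 in memory-derived stimulated cells. The Gapdh gap had the opposite order, at -1.82 to -1.48 in naive-derived and -1.43 to -1.38 in memory-derived stimulated cells. The part of these values in this result was not tested.

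Without stimulation, Mrpl33 had log2 levels of 6.89 and 7.23 in naive-derived and 8.35, 7.58 and 7.64 in memory-derived cells. These were apart as well, by -0.80 (SE 0.258, limma adjusted p 0.043), a call that 8 of the single-array omissions ended (limma adjusted p 0.0506 to 0.245). Stimulation did not move the gene past the threshold in memory-derived cells (log2 difference 0.22, limma adjusted p 0.511) or in naive-derived cells (-0.27, limma adjusted p 0.847). The second probe set of Mrpl33 had a mean log2 level of 1.30, below the filter level, and its difference between origins after stimulation was 0.76 (limma adjusted p 0.247), opposite in sign. With the mean of both probe sets the difference between origins was -0.26 after stimulation (limma adjusted p 0.66). Without stimulation it was -0.22 (limma adjusted p 0.589), so neither call held.

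**Figure D4:**
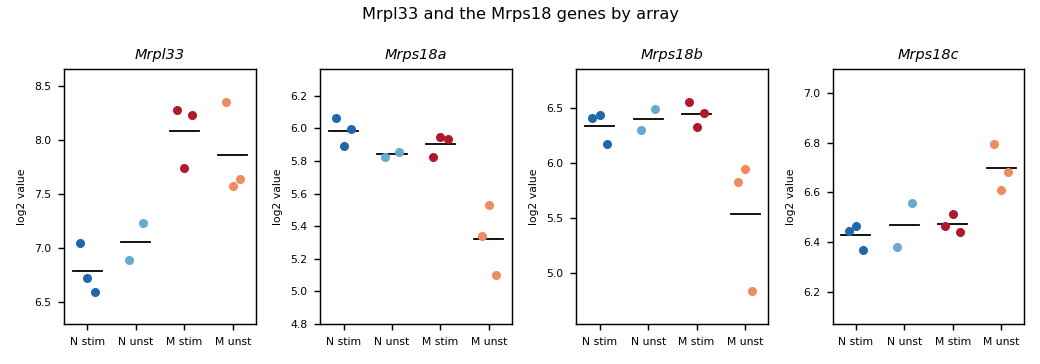
Log2 values by array for Mrpl33 and the Mrps18 paralogs, with group means as bars; N and M stand for naive-derived and memory-derived, stim and unst for stimulated and unstimulated. Mrpl33 sits at 6.60 to 7.23 on the naive-derived arrays and at 7.58 to 8.35 on the memory-derived ones, while Mrps18a and Mrps18b are lowest in memory-derived unstimulated cells.

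The next genes by p after stimulation were Mrpl14, at -0.34 (unadjusted p 0.0472, limma adjusted p 0.297), and Mrpl39, a large subunit protein without a bacterial counterpart, at 0.26 (unadjusted p 0.0569, limma adjusted p 0.324). When each probe set was fitted alone, a weaker probe set of Mrps10 was higher in naive-derived stimulated cells by 0.74 (limma adjusted p 0.0388), while the chosen one differed by 0.16 (limma adjusted p 0.714).

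Genes that act with the mitochondrial ribosome were counted in the same fits, where 14.3% of all genes rose and 17.3% fell after stimulation of memory-derived cells, or 11.1% and 13.1% without the third unstimulated array. Of 4 mitochondrial ribosomal proteins with other symbols that were tested, 2 rose and 1 fell after stimulation of memory-derived cells. Ptcd3, a pentatricopeptide repeat protein of the small subunit, had log2 levels of 6.04, 5.90 and 5.96 with stimulation and 5.22, 5.45 and 4.70 without it, and rose by 0.84 (SE 0.177, limma adjusted p 0.00487). Dap3, a GTP-binding protein of the small subunit, had 5.00, 5.15 and 5.07 against 5.54, 5.42 and 5.89, and fell by 0.54 (SE 0.136, limma adjusted p 0.0113). In unstimulated cells Ptcd3 was higher by 0.85 in naive-derived cells (limma adjusted p 0.0102, lost without the second naive-derived array at 0.0895) and Dap3 differed by -0.60 (limma adjusted p 0.015, lost without either naive-derived array at 0.115 and 0.0535).

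Of 24 genes for assembly of the mitochondrial ribosome and its RNA, 8 rose (33.3%) and 2 fell (8.33%) in memory-derived cells with stimulation (median log2 difference 0.18), and 4 rose and 1 fell without the third unstimulated array. Fastkd2 and Dhx30, RNA-binding proteins of the granules where the ribosome is assembled, rose by 1.07 (limma adjusted p 0.00352) and 0.85 (limma adjusted p 0.00525). Of 11 mitochondrial translation factors 2 rose and 2 fell (18.2% each), near the share of all genes, or 1 and 0 without that array (median -0.02). Gfm1, the mitochondrial elongation factor G1, had log2 levels of 6.10, 6.19 and 6.12 in stimulated and 5.38, 5.38 and 5.33 in unstimulated memory-derived cells, with no overlap, and rose by 0.77 (SE 0.11, limma adjusted p 0.000622). Oxa1l, which inserts newly made proteins into the inner membrane, fell by 0.44 (limma adjusted p 0.0404), a call that 9 of the single-array omissions ended (limma adjusted p 0.0525 to 0.126); without the third unstimulated array its difference was -0.29, and the block (limma adjusted p 0.0594) and the mean of its probe sets (-0.28, limma adjusted p 0.0776) ended the call too. Of 19 mitochondrial aminoacyl-tRNA synthetase genes and partners 2 rose (10.5%), Yars2 by 0.88 (limma adjusted p 0.00964) and Gatc by 0.59 (limma adjusted p 0.00489), and none fell (median -0.07).

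The calls among genes of mitochondrial transcription and RNA handling and of protein import were mainly increases in memory-derived cells. Of 23 for transcription and RNA handling 15 rose (65.2%) and 1 fell (median log2 difference 0.56), or 11 and 1 without the third unstimulated array. Fastkd3, an RNA-binding protein, rose by 1.26 (limma adjusted p 0.000911) and Pnpt1, an RNA-degrading enzyme, by 1.01 (limma adjusted p 0.0011); with the mean of its probe sets Pnpt1 differed by 0.42 and did not pass (limma adjusted p 0.061). Of 28 for import and chaperones 16 rose (57.1%) and none fell (median 0.45), with Hspa9, the matrix Hsp70 that pulls proteins in, higher by 1.42 (limma adjusted p 0.000514). Timm10, a chaperone of the intermembrane space, rose by 1.31 (limma adjusted p 0.0168), and by 0.75 without the third unstimulated array; its call was lost without the first stimulated array (limma adjusted p 0.0509).

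The nuclear-encoded respiratory chain subunits, whose partners the mitochondrial ribosome makes, had more decreases than increases among those that passed. Of 73, 2 rose (2.74%), 29 fell (39.7%) and 42 did not pass (median log2 difference -0.25). Without the third unstimulated array 1 rose and 20 fell. Under scaling to the hybridization controls 2 rose and 12 fell, where 9.21% of all genes rose and 13.1% fell. The share that fell was then nearer to that of all genes. The 2 with the largest difference among those that passed were the 2 that rose, Ndufb1 by 1.70 (limma adjusted p 0.000532) and Atp5md by 0.96 (limma adjusted p 0.0301); the call for Atp5md was lost without any single memory-derived stimulated array or the second or the third unstimulated one (limma adjusted p 0.0539 to 0.109). Of 42 cytosolic ribosomal protein genes only Rps25 passed, higher by 0.91 (limma adjusted p 0.00646), and their median was 0.00. Of 13 regulators of mitochondrial biogenesis 6 rose and none fell. Atf4, a stress-response factor, rose by 1.53 (limma adjusted p 0.000387) and Myc, a growth factor-induced transcription factor, by 1.35 (limma adjusted p 0.0333); the difference for Myc was 0.71 without the third unstimulated array, and its call was lost without any single stimulated array (limma adjusted p 0.0704 to 0.0808).

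**Figure D5:**
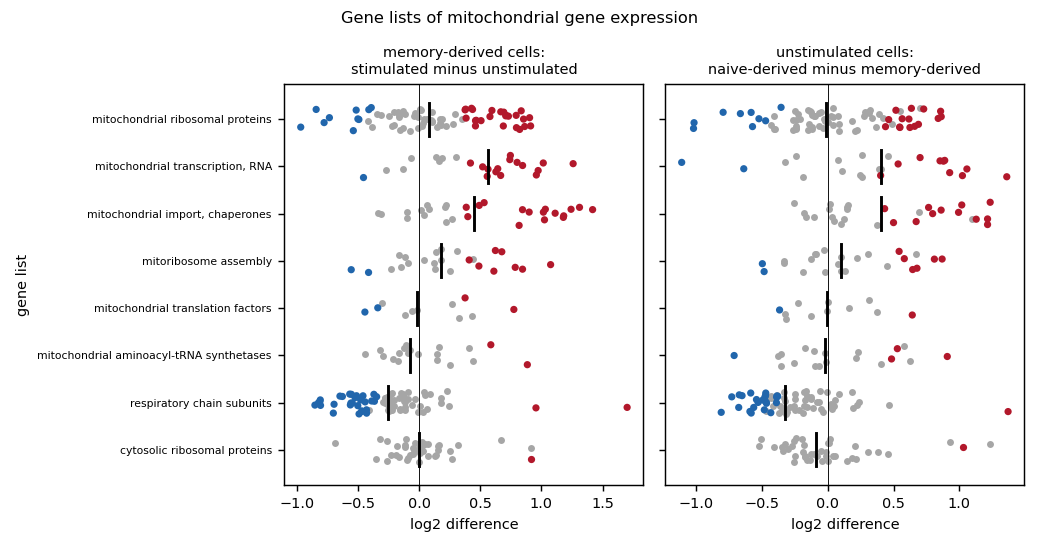
Log2 differences of single genes (points) and list medians (black lines) for the mitochondrial ribosomal genes and related lists, after stimulation of memory-derived cells on the left and between unstimulated naive-derived and memory-derived cells on the right; red and blue mark genes higher and lower at an adjusted p below 0.05. On the left the medians were 0.08 for the mitochondrial ribosomal genes, 0.56 for transcription and RNA handling, 0.45 for import, -0.25 for the respiratory chain and 0.00 for cytosolic ribosomal proteins.

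Between unstimulated naive-derived and memory-derived cells, which again share their memory-derived arrays with the stimulation comparison, 10.9% of all genes were higher and 14.9% lower. In naive-derived cells 10 of 23 genes of transcription and RNA handling were higher (43.5%) and 2 lower, 12 of 28 import genes higher (42.9%) and none lower, and 6 of 24 assembly genes higher (25.0%) and 2 lower. Of 73 respiratory chain genes 1 was higher and 23 lower (31.5%), with a median log2 difference of -0.32. Of 42 cytosolic ribosomal proteins 1 was higher and none lower, with a median of -0.09.

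The list genes with the largest differences between unstimulated origins included Fastkd3 at 1.36 (limma adjusted p 0.00152) and Hsd17b10, a subunit of mitochondrial RNase P, at -1.11 (limma adjusted p 0.000661). Tomm40, the import pore, and Hspd1, the matrix chaperonin, were higher in naive-derived cells by 1.23 and 1.21 (limma adjusted p 0.00623 and 0.00392). The complex I subunits Ndufb1 and Ndufb10 differed by 1.37 and -0.81 (limma adjusted p 0.00383 and 0.00202), and Gabpb1, the beta subunit of GABP, by 1.28 (limma adjusted p 0.00304). Gfm1 differed by 0.64 (limma adjusted p 0.00396), and no single-array omission ended any of the calls named so far in this paragraph. Without either naive-derived unstimulated array the calls of Fastkd2 (0.87), Dhx30 (0.81), Yars2 (0.91) and Myc (1.59) were lost, with limma adjusted p of 0.0757 to 0.147, and that of Rps25 (1.03) was lost without the second (limma adjusted p 0.0865). Scaling to the hybridization controls ended the calls of Gfm1, Fastkd2 and Yars2 (limma adjusted p 0.0545, 0.0655 and 0.0557). Without the third memory-derived unstimulated array the differences were 0.56 for Fastkd2 and 0.94 for Myc. Fars2 (-0.71, limma adjusted p 0.0433) and Mtif2 (-0.37, limma adjusted p 0.0453) lost their calls in 8 and 10 of the single-array omissions. Between stimulated origins, Hsd17b10 (-0.58), Rps2 (0.58) and Rps20 (-0.72) passed with limma adjusted p of 0.0376, 0.0309 and 0.0485 and lost their calls in 7, 7 and 10 of the omissions. With the experiment number as a block these 3 did not pass (limma adjusted p 0.0531, 0.0516 and 0.0669), nor, between unstimulated origins, did Myc (0.0786), Fars2 (0.0794) and Mtif2 (0.0949). With the mean of its probe sets Rps20 differed by -0.35 (limma adjusted p 0.18).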

How the data were processed

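RNA of 11 cultures was hybridised to Affymetrix 3' expression arrays. The authors deposited 1 value per probe set and array, made with Affymetrix Expression Console per the submitters' processing notes; the normalization method is not given in the sources used here. The deposited values were taken as log10, since the spike-in hybridization controls rise by 0.944, 1.02 and 1.77 units per log10 unit of concentration over the kit's successive steps, where a log2 scale would give over 3, and were multiplied by 3.32 to give log2. All arrays hold the same sorted values, so differences are relative to the rest of each array, and no depth applies; the number of arrays limits the precision.

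Of 45101 probe sets, 34945 carried a single symbol in the platform annotation, 932 several and 9160 none, and 34741 matched a gene ID of the RefSeq table, with 0 symbols changed. Mrpl30 and Mrpl53 had only probe sets with several symbols and are not analysed here. The test took genes whose value passed percentile 40 of the values (1.54 on the log2 scale) on 2 arrays or more. The fit was limma 3.58.1 (R 4.3.3) on the means of the 4 groups, with 7 residual degrees of freedom, two-sided contrasts and Benjamini-Hochberg adjustment, called at an adjusted p below 0.05. It was tested on simulated data.

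The genes, lists and tests were chosen with earlier results of these data known. The text names, per comparison, the 6 genes with the largest increase and decrease among those called. Where fewer than 3 were called, it names the 3 with the smallest p. It names the 5 with the largest p in the 2 comparisons with memory-derived unstimulated cells. The Mrps18 genes, Mrpl12, Mrps30, Mrpl58, Dap3 and the 2 largest called genes of each other list are also named. Opposite probe sets are described for stimulation of memory-derived cells, and for Mrpl33 between stimulated origins. Those of Mrpl35 and Mrps5 (naive-derived stimulation) and Mrpl47 and Mrps21 (stimulated origins) are not described. Nor are those of Mrpl27, Mrpl33, Mrpl52, Mrpl54 and Mrps14 (unstimulated origins), or of Mrpl13, Mrpl27, Mrpl52, Mrpl54, Mrpl58, Mrps10 and Mrps14 (interaction). Replicate numbers mark the independent experiments of the labels. The deviations of arrays of the same experiment correlated at -0.0716 to 0.112 (15 pairs, median 0.0341). Those of different experiments correlated at -0.131 to 0.112 (30 pairs, median -0.00361). For the 5 pairs of the same experiment and origin the range was 0.047 to 0.112 (median 0.0944).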

Additional observations from a re-analysis of the deposited data

Results flagged for a closer look

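Among the 76 genes and the other lists, 4 genes passed the interaction test, where 2.71% of all genes tested passed. These were 2 of the 76 (2.63%, near that share), 1 of 11 translation factors and 1 of 28 import genes. For Mrpl10 the naive-derived minus the memory-derived response was 0.92 on the log2 scale (SE 0.201, limma adjusted p 0.0432), and for Mrps16 it was 0.93 (SE 0.197, limma adjusted p 0.0411), with values and losses of the calls as given in the report.

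Gfm1 differed by -0.82 (SE 0.165, limma adjusted p 0.0365), with log2 levels of 5.95, 5.88 and 6.05 in naive-derived stimulated cells and 6.10 and 5.91 in naive-derived unstimulated cells, against its rise in memory-derived cells. Tomm20, a receptor of the import machinery, differed by -1.55 (SE 0.323, limma adjusted p 0.0401). Its log2 levels were 11.91, 11.45 and 11.67 in naive-derived stimulated and 12.15 and 12.26 in naive-derived unstimulated cells, and 12.87, 12.26 and 12.23 in memory-derived stimulated and 11.75, 11.48 and 11.09 in memory-derived unstimulated cells. With the mean of their probe sets Gfm1 and Tomm20 differed by -0.59 and -0.69 and did not pass (limma adjusted p 0.0615 and 0.0839). With the experiment number as a block neither passed (limma adjusted p 0.079 and 0.0634), and 8 of the omissions of a single array ended each call, with limma adjusted p of up to 0.145 for Gfm1 and 0.137 for Tomm20.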

How the results depend on the processing

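No call of a named gene changed sign under any of the 19 alternatives, and no gene of the 76 was called after stimulation of naive-derived cells under any of them (limma). In the main fit 2 of the 76 had an unadjusted p below 0.05 there, against 1252 of the 14795 genes tested. The number of the 76 genes called after stimulation of memory-derived cells was 35 and became 16 with experiments 1 and 2 only and 18 with scaling to the hybridization controls, and ran between 23 and 37 when single arrays were left out. The 23 came without the second memory-derived stimulated array, where 21.1% rose and 9.21% fell, against 10.3% and 12.9% of all genes. The 37 came without the second memory-derived unstimulated array, where 32.9% rose and 15.8% fell, against 14.4% and 17.6% of all genes. Of the 35, 34 were also called, in the same direction, with the replicate block. With experiments 1 and 2 only 14.5% of the 76 rose and 6.58% fell, against 8.29% and 10.3% of all genes. Scaling to the controls gave 18.4% and 5.26%, against 9.21% and 13.1% of all genes. Between unstimulated origins the count was 24 and became 11 with experiments 1 and 2 only, 4 with scaling to the controls and 15 with the replicate block, and ran between 4 and 25 when single arrays were left out. With experiments 1 and 2 only, 7.9% of the 76 were higher and 6.58% lower between unstimulated origins, against 7.66% and 10.8% of all genes. The upper end of that range came without the second memory-derived unstimulated array, with 21.1% higher and 11.8% lower, against 12.1% and 16.1% of all genes. The lower end came from an omission that leaves 1 naive-derived unstimulated array. After stimulation the single call between origins, Mrpl33, went to 0 with experiments 1 and 2 only and with the mean of all probe sets, and the count was 0 or 1 when single arrays were left out. The 2 interaction calls became 5 with array quality weights and 0 with experiments 1 and 2 only, scaling to the controls, no filter on low values or the replicate block, and ran between 0 and 5 when single arrays were left out. With array quality weights 5.26% of the 76 had a positive interaction call and 1.32% a negative one, against 5.65% and 4.39% of all genes. Without the second memory-derived unstimulated array the shares of the 76 were the same, against 5.46% and 4.71% of all genes. Where an omission leaves 1 naive-derived unstimulated array, that array is assumed to vary like the other groups. The causes were not tested, and experiments 1 and 2 alone leave fewer arrays. Scaling to the controls moved the median log2 difference of all genes between stimulated origins to -0.12, against -0.01 without it. The random block of origin and experiment, each probe set on its own and the other lists without the third memory-derived unstimulated array were chosen after seeing the data. Probes that are dim limit the second probe sets of several genes, and the 2 naive-derived unstimulated arrays limit every comparison that uses them.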

Other observations

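Over the 11 arrays, the genes most like the mean of the 76 mitochondrial ribosomal genes by Pearson's r were Tmem238 (0.943), Polr2d (0.930), Slirp (0.930), Gm36617 (0.926) and Atp23 (0.923). These arrays share 4 groups and 1 normalization. Slirp encodes a partner of Lrpprc that stabilises mitochondrial messenger RNA, and Polr2d a subunit of RNA polymerase II. Among the 2850 pairs of the 76 genes the median r was 0.172, with 441 pairs (15.5%) above 0.8 and 170 pairs (5.97%) below -0.8.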
